A study of Mus musculus with 2 samples.

Results

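The 9 genes described here encode transcription factors of tooth mesenchyme, the connective tissue of a developing tooth that gives rise to pulp and dentine-forming cells. They are Msx1, Msx2, Pax9, Lhx6, Lhx8, Barx1, Barx2, Osr1 and Osr2, and they are 9 of 21631 protein-coding genes in all (Y left out). The rule lists them by name and holds no measured value, but they were chosen with earlier results of these data known. Although grouped as homeobox factors, only 6 of them encode homeodomain proteins: Pax9 is a paired-domain protein, and Osr1 and Osr2 are zinc finger proteins of the odd-skipped family. Islands of histone H3 lysine 4 trimethylation (H3K4me3) and lysine 27 trimethylation (H3K27me3) were read in each gene plus 20 kb either side, its window.

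H3K4me3 lies at promoters in use or held ready for use, and H3K27me3 is written by Polycomb repressive complex 2 over genes held silent. Developmental regulators often carry both. In the tooth, BMP and FGF signals from the dental epithelium induce Msx1 in the mesenchyme, where Msx1 and Pax9 maintain Bmp4; Lhx6, Lhx8 and Barx1 pattern the molar field of the jaw, and Osr2 limits tooth formation to a single row.

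Both libraries came from the incisor pulp of CD1 mice aged 5 days that had received EdU, a thymidine analogue, at 3.3 µg per g 24 h before. Only cells that had taken up EdU, sorted by flow, entered the immunoprecipitation, so the groups share strain, age, agent and sort, and differ in the antibody target. Each mark has 1 library and no input control, so nothing below is checked against replicate spread or tested. Whether animals were pooled is not stated in the labels.

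The deposited values are called islands, placed on the genome with a height at the summit in the authors' units; they hold no read counts, so depth is unknown. There were 14361 H3K4me3 and 11341 H3K27me3 islands, with median heights of 90 and 12. Heights are compared only within a mark. As a check of the tissue, 10 of 10 markers of pulp mesenchyme (Col1a1, Prrx1 and Runx2 among them) had H3K4me3 within 1 kb of a gene end, as did 5 of 7 epithelial, 1 of 6 endothelial, 3 of 6 blood and 3 of 4 glia and nerve markers; 58.9% of all genes did. Of the other-cell markers, Pecam1, Cdh5, Tek, Tie1, Emcn, Ptprc and Csf1r had no island of either mark in their windows. What cells of other types add to the 9 windows was not tested.

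All 9 genes carried both marks, and in all 9 the islands of the marks shared sequence. Across all protein-coding genes 71.0% had H3K4me3 in the window, 39.0% had H3K27me3, 34.4% had both, and in 25.9% the islands shared sequence. Within 1 kb of a gene end all 9 genes again carried both marks, against 22.4% of genes with H3K27me3 and 16.8% with both there. In sorted cells, both marks on the same chromosomes and each mark in different cells cannot be told apart.

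The windows held 15 H3K4me3 islands, and 14 of them lay wholly inside an H3K27me3 island. The exception was the Msx2 island. Of all H3K4me3 islands, 29.2% touched H3K27me3 and 20.4% lay wholly inside it; among those that touched it, 69.8% lay wholly inside. The summit lay inside H3K27me3 for 14 of the 15, against 25.7% of all H3K4me3 islands. Seen from the other mark, 10 of the 12 H3K27me3 islands in the windows met H3K4me3, against 34.6% of all; the 2 that did not were minor islands at Barx2. Wide islands met H3K4me3 more often in general: of H3K27me3 islands of 18 kb or more, a limit set after the widths had been seen, 61.1% did, and all 8 of that width in these windows did.

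**Figure D1:**
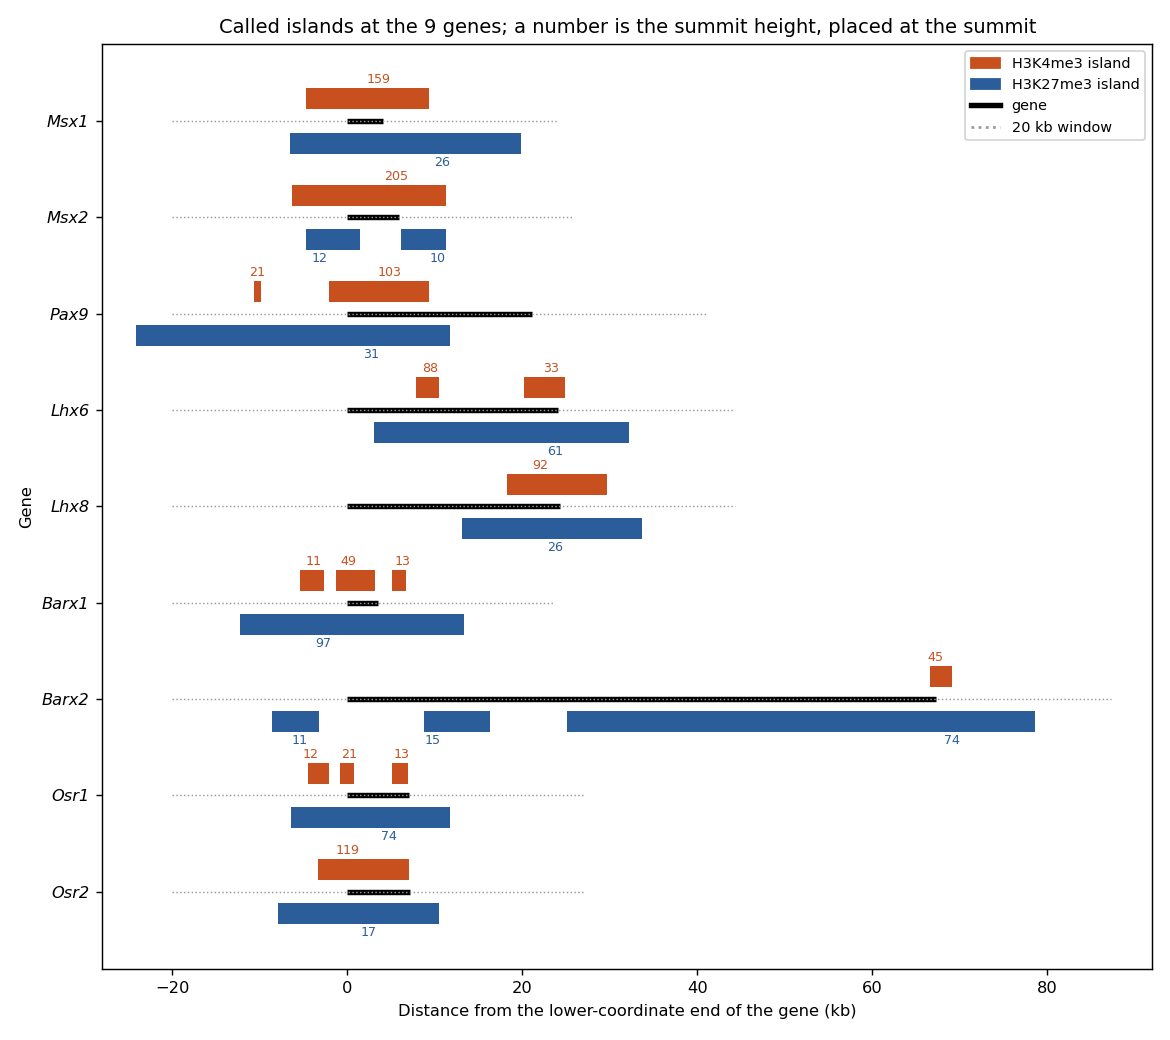
Islands of H3K4me3 (orange, above) and H3K27me3 (blue, below) along each gene (black) and its window of 20 kb either side (dotted), by distance in kb from the end of the gene with the lower coordinate; numbers are summit heights. Wide single H3K4me3 islands are seen at Msx1, Msx2, Lhx8 and Osr2 and a wide one at Pax9, while Barx1 and Osr1 have 3 separate islands each inside 1 H3K27me3 island.

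H3K27me3 was the longer mark in 8 of the 9 windows, as it was in 27.1% of all protein-coding genes and 65.3% of the 7433 with both marks. Its median length under islands was 25.6 kb, against 8.80 kb among all genes with the mark in their window, and the median for H3K4me3 was 10.4 kb, against 5.94 kb. By H3K27me3 length all 9 genes lay above the 75th percentile of protein-coding genes (24.6% of genes lie above it, ties kept below), and by H3K4me3 length 6 did (24.7%): Lhx6, Barx2 and Osr1 did not. With 50 kb either side in place of 20 kb only 3 did by H3K4me3 length, Msx1, Msx2 and Lhx6, against 5405 of the 21631 genes. The windows differ in size with the genes, from 43.5 kb at Barx1 to 107 kb at Barx2.

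**Figure D2:**
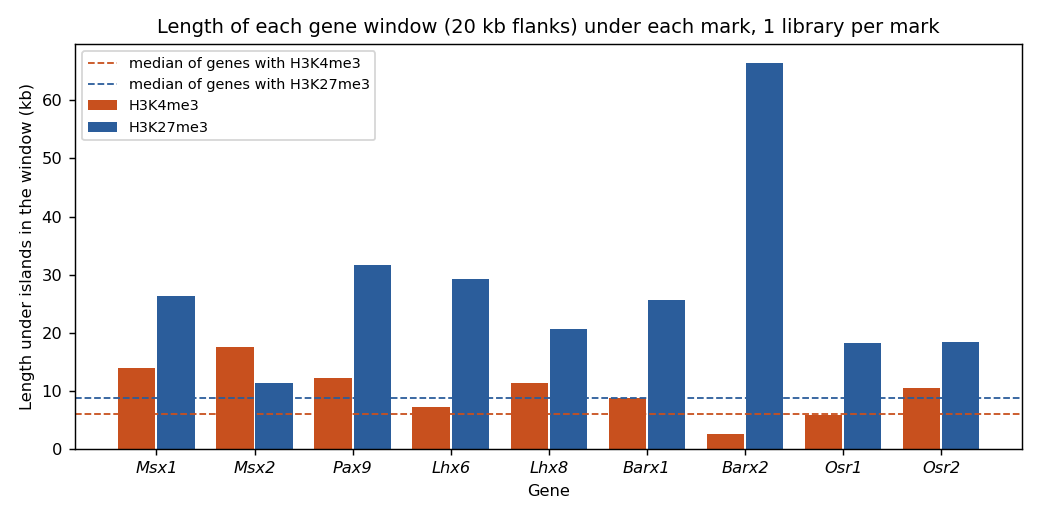
Length in kb of each window under H3K4me3 (orange) and H3K27me3 (blue) islands, 1 library per mark; dashed lines give the medians of all protein-coding genes with that mark in the window, 5.94 and 8.80 kb. Only at Msx2 is H3K4me3 the longer mark, and Barx2 has the least H3K4me3 (2.60 kb) and the most H3K27me3 (66.4 kb).

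Summit heights of the marks ran in nearly opposite order over the 9 genes. The highest H3K4me3 summit was 205 at Msx2, 159 at Msx1, 119 at Osr2, 103 at Pax9, 92 at Lhx8, 88 at Lhx6, 49 at Barx1, 45 at Barx2 and 21 at Osr1. The highest H3K27me3 summit was 97 at Barx1, 74 at both Barx2 and Osr1, 61 at Lhx6, 31 at Pax9, 26 at both Msx1 and Lhx8, 17 at Osr2 and 12 at Msx2. The 3 genes with the lowest H3K4me3 summits were thus the 3 with the highest H3K27me3 summits. Spearman's rho was -0.89 over the 9 genes, which share their 2 libraries, and -0.15 over the 7433 protein-coding genes with both marks; both values are descriptions. With only islands within 1 kb of a gene end, the H3K4me3 height of Lhx6 was 33 in place of 88, the other heights stayed the same, and rho over the 9 was -0.82; Lhx6 in place of Barx1 was then among the 3 lowest for H3K4me3. With no replicate, neighbours in these orders, such as Lhx8 and Lhx6 or Barx1 and Barx2 for H3K4me3, cannot be ranked beyond error.

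**Figure D3:**
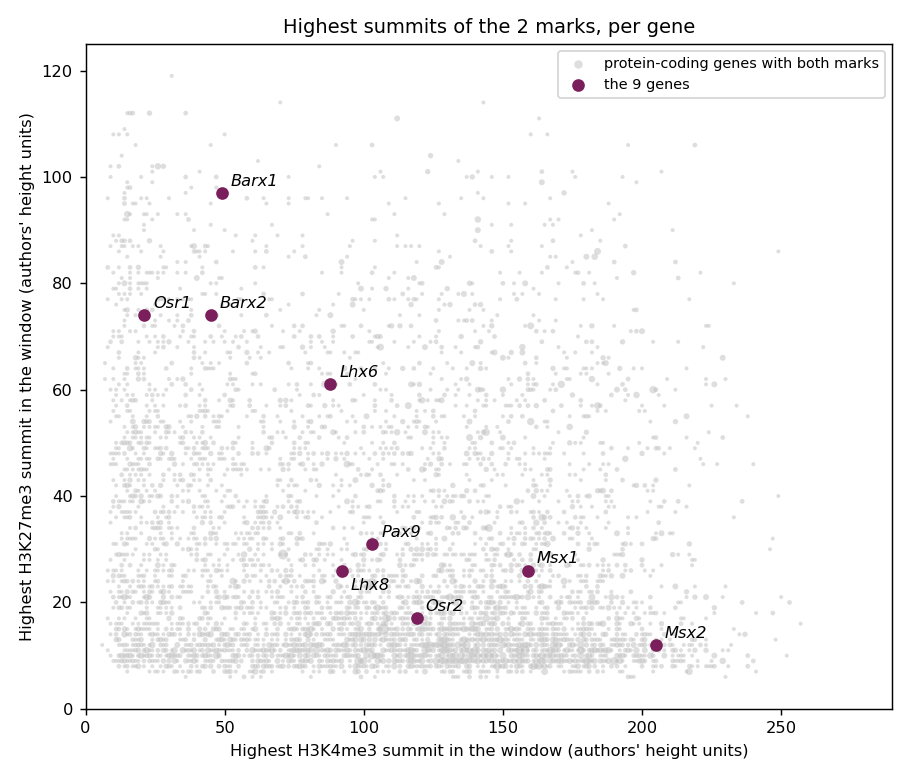
Highest summit of H3K4me3 (x axis) and of H3K27me3 (y axis) in each window, in the authors' height units, for the 9 genes (purple) and all protein-coding genes with both marks (grey, larger where genes coincide). Barx1, Barx2 and Osr1 lie at the upper left, with H3K27me3 summits of 74 to 97, and Msx1, Msx2 and Osr2 at the lower right, with 12 to 26.

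Wide H3K4me3 islands, of 10 kb or more, stood at 5 of the 9 genes: Msx1, Msx2, Pax9, Lhx8 and Osr2. Such an island lay in the window of 4.23% of protein-coding genes, and 1.93% of all H3K4me3 islands were that wide. Of the 277 wide islands in the genome 95 (34.3%) touched H3K27me3 and 14 (5.05%) lay wholly inside 1 H3K27me3 island. These 14 included 4 of the genes described here, Msx1, Pax9, Lhx8 and Osr2. The limit of 10 kb was set after the widths had been seen: at 8 kb or more the same 4 genes were among 40 such islands, and at 12 kb or more only Msx1 was, among 7.

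Promoter sequence is shown for 4 genes to set base composition beside these layouts: Msx1 and Msx2, the pair with the tallest H3K4me3, Lhx8, with a wide H3K4me3 island, and Barx1, with the tallest H3K27me3. Each run is 300 bases, from 250 before the start of transcription to 50 after it, from RefSeq on GRCm38.p6, the assembly called mm10. The promoter table held 6 of the 9 genes, with 3 starts for Lhx6. The stretches are chr5:37824536-37824835 on the minus strand for Msx1, chr13:53472731-53473030 on the minus strand for Msx2, chr3:154330511-154330810 on the minus strand for Lhx8 and chr13:48662786-48663085 on the plus strand for Barx1. Capitals mark CpG dinucleotides, the sites of DNA methylation in mammals, in sequences written 5′ to 3′.
Msx1: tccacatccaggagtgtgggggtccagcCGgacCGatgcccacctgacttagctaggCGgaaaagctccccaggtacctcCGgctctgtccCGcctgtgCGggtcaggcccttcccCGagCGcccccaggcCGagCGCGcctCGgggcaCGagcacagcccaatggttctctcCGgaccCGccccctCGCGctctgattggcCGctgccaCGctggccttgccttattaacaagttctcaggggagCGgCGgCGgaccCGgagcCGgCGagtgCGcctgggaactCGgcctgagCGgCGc
Msx2: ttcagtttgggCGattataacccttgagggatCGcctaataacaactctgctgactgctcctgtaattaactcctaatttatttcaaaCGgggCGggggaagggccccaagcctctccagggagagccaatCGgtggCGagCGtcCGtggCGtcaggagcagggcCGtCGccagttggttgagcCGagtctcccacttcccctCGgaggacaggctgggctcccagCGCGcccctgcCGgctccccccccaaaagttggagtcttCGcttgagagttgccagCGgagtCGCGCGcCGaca
Lhx8: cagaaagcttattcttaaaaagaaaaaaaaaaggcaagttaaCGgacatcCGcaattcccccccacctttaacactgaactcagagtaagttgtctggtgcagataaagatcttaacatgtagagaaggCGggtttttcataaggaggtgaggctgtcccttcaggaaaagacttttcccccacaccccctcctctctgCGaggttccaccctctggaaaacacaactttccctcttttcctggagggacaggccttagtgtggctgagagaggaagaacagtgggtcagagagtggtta
Barx1: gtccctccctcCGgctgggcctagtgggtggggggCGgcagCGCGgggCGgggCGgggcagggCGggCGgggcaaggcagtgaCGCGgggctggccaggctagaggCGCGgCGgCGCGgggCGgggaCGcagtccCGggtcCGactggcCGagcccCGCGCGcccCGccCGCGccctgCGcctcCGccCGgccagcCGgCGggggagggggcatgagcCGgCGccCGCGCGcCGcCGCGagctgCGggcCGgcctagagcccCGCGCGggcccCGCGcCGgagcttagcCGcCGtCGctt

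CpG content spanned most of the range of mouse promoters. Barx1 had 50 CpG in its 300 bases, more than 99.0% of promoters of protein-coding genes, and 84.7% G or C. Msx1 had 29, Msx2 22 and Pax9 11, the starts of Lhx6 16, 17 and 11, and Lhx8 only 4, at percentile 25.5. The median was 13 over 21045 promoters, and 22 over the 2392 whose start lay inside islands of both marks. Msx2 and Msx1, with the widest and tallest H3K4me3 of the 9, lay at percentiles 69.5 and 83.5 for CpG. Width did not follow CpG throughout: Lhx8, with 4, had an island of 11.4 kb, and Barx1, with 50, one of 4.40 kb. Barx2, Osr1 and Osr2 were not in the table.

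All 8 listed starts of these 6 genes lay inside an H3K4me3 island (57.6% of all promoters). Of the 8, 7 lay inside H3K27me3 (16.5% of all promoters, and 11.4% inside both marks). The starts of Lhx6 share the same islands, so the 8 are not separate loci. The start outside H3K27me3 was that of Msx2, which lay close to an island edge, and edges are resolved to about 200 bp. Searched on both strands, the homeodomain core TAATTA occurred in 1 of the 8 promoters, that of Msx2 (4.47% of all promoters), and TATAAA in 1, at the Lhx6 start with the lowest coordinate (12.7%). The Tcf/Lef core CTTTGA (14.4%) and the Gli motif GACCACCCA (0.181%) were in none of the 8. Matches are descriptions of these letters and not sites of binding.

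Msx1 and Msx2 encode homeodomain repressors that act downstream of BMP signalling. At Msx1 (chr5:37820491-37824585) a single H3K4me3 island of 14.0 kb (chr5:37815801-37829799, height 159) covered the whole gene. It reached 5.21 kb before the start and 8.78 kb after it, and its summit lay inside the gene. A single H3K27me3 island of 26.4 kb (height 26) enclosed it, reaching 1.80 kb past it on the lower-coordinate side and 10.6 kb past it on the other, which is upstream of this minus-strand gene. The H3K27me3 summit lay there, 7.26 kb from that of H3K4me3.

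At Msx2 (chr13:53466881-53472780) the layout was turned around. H3K4me3 covered 17.6 kb (chr13:53460601-53478199, height 205), wider than 99.8% and taller than 97.6% of all H3K4me3 islands. H3K27me3 lay inside it as 2 islands of 6.20 and 5.20 kb with heights of 12 and 10, so that all of the H3K27me3 in the window was under H3K4me3. Between them was a gap of 4.60 kb (chr13:53468400-53473000) that held both the H3K4me3 summit and the start of transcription. The start, at 53472780, lay close to the upper end of this gap, and island edges are resolved to about 200 bp. H3K27me3 covered 25.7% of the gene and H3K4me3 100%. A wide H3K4me3 island on at least 2 H3K27me3 islands with its summit in none of them occurred 3 times among the 277 (1.08%), Msx2 included. That class was defined after the Msx2 layout had been seen, so the count is a description only. Between the Msx genes, H3K4me3 height differed 1.29 times and H3K27me3 height 2.17 times, in opposite directions.

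Pax9, which tooth buds need to develop past the bud stage, had 2 H3K4me3 islands inside 1 H3K27me3 island of 35.8 kb (chr12:56667601-56703399, height 31). The main one, 11.4 kb with a height of 103, covered the lower-coordinate part of the gene (chr12:56691693-56712824). It also covered the listed start at 56695471, which lies inside the gene, with 5.87 kb before it and 5.53 kb after. From the lower-coordinate end of the gene it reached 2.09 kb outward. The other was 0.799 kb wide with a height of 21 and lay 9.89 kb outside the gene. The H3K27me3 island reached 24.1 kb beyond that end of the gene, past the window, and it left the distal part of the gene unmarked: H3K4me3 covered 44.0% of the gene and H3K27me3 55.4%.

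Lhx6 and Lhx8 encode LIM homeodomain factors of the oral side of the first arch, with overlapping roles in molar and palate formation. Lhx6 (chr2:36081950-36105992) had 2 H3K4me3 islands inside 29.2 kb of H3K27me3 (height 61). The island over its 3 starts was 4.60 kb wide with a height of 33, and the taller one, of 2.60 kb and height 88, lay inside the gene, 9.80 kb from the first. The highest H3K4me3 summit of this window was thus not at any of the 3 listed starts. It lay 14.3 kb from the highest H3K27me3 summit, which was close to those starts.

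Lhx8 (chr3:154306288-154330560) had a single H3K4me3 island of 11.4 kb (height 92) around its start, with 5.44 kb before and 5.96 kb after, inside 20.6 kb of H3K27me3 (height 26). The 2 summits were 1.62 kb apart. Window-wide H3K4me3 heights of the pair were close, 88 and 92, while H3K27me3 was 2.35 times higher at Lhx6. At the start itself the H3K4me3 islands had heights of 33 and 92. H3K4me3 reached 5.21 to 5.87 kb upstream of the listed starts of Msx1, Msx2, Pax9 and Lhx8. At Barx1 and the starts of Lhx6 it reached 1.24 to 2.74 kb. Pax9 falls in the first group only by its listed start: from the lower-coordinate end of that gene, H3K4me3 reached 2.09 kb.

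Barx1 and Barx2 encode Bar-class homeodomain factors; Barx1 marks molar mesenchyme and is known for its near absence from incisor mesenchyme. Barx1 (chr13:48663036-48666507) was covered by 1 H3K27me3 island, 25.6 kb wide (chr13:48650801-48676399), whose height of 97 was above that of 99.6% of H3K27me3 islands. Inside it were 3 H3K4me3 islands of 2.80, 4.40 and 1.60 kb, with heights of 11, 49 and 13. The middle one covered the start, and gaps of 1.40 and 2.0 kb separated it from the others. H3K27me3 reached 6.80 and 6.60 kb past the outer H3K4me3 islands.

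Barx2 (chr9:31846044-31913285), the longest of the 9 genes at 67.2 kb, had 1 H3K4me3 island of 2.60 kb (height 45) over its higher-coordinate end. It lay inside an H3K27me3 island of 53.4 kb (chr9:31871201-31924599, height 74), which ran 41.4 kb from the H3K4me3 island into the gene. Further H3K27me3 islands of 7.60 kb (height 15), inside the gene, and 5.40 kb (height 11), beyond its other end, carried no H3K4me3. H3K27me3 covered 73.9% of the gene and H3K4me3 1.02%. H3K27me3 thus had 25.5 times the length of H3K4me3 in this window, against 2.91 times at Barx1 and 0.648 times at Msx2.

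Osr1 and Osr2 were the pair that differed most in height for both marks. Osr1 (chr12:9574442-9581500), best known from kidney and heart mesoderm, had 3 H3K4me3 islands of 2.40, 1.60 and 1.80 kb with heights of 12, 21 and 13, inside 18.2 kb of H3K27me3 (height 74). Osr2 (chr15:35296098-35303305) had 1 H3K4me3 island of 10.4 kb (height 119) inside 18.4 kb of H3K27me3 (height 17). The H3K27me3 lengths of the pair were nearly equal, with a ratio of 1.01, while its height was 4.35 times larger at Osr1 and the H3K4me3 height 5.67 times larger at Osr2.

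Both Osr genes lay wholly under H3K27me3, and H3K4me3 covered 36.2% of Osr1 and 98.5% of Osr2. As at Barx1 and Osr1, 29 of the 11341 H3K27me3 islands (0.256%) held 3 or more whole H3K4me3 islands. That share covers islands of every width, with a median of 6.20 kb, and narrow islands have little room for 3. Only 822 were 18 kb or more, as those of Barx1 and Osr1 were, and a share at like width is not given. The count of 29 was made after these layouts had been seen.

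Set beside other homeobox families, the 9 genes covered a wide range of heights. All 6 Dlx genes, which encode distal-less factors of the jaw, had both marks. Their highest summits were 178 to 200 for H3K4me3 and 12 to 20 for H3K27me3. Linked Dlx genes share islands, so these are 3 loci. Within 1 kb of gene ends all 6 again had both marks, with heights of 130 to 200 and 8 to 20. Of 10 LIM homeobox genes of other lineages, 8 had both marks and Lhx3 and Lhx5 had H3K27me3 only, and their heights were 0 to 103 and 54 to 119. Msx2, at 205 and 12, came nearest to the Dlx values, while Barx1, Barx2, Osr1 and Lhx6 lay within the range of the LIM genes for both marks. The upper H3K4me3 limit of the LIM genes was that of Lhx1 alone, from an island away from its ends; the next was 39. Within 1 kb of gene ends the LIM genes had 0 to 39 and 54 to 119, and 6 of 10 had both marks; Osr1 (21 and 74) and Lhx6 (33 and 61) lay within those ranges, and Barx1 and Barx2, with H3K4me3 heights of 49 and 45, above them. Among remaining close paralogs, Msx3 had H3K4me3 and H3K27me3 heights of 142 and 64 in its window (44 for H3K4me3 within 1 kb of its ends), and Pax1, the paralog of Pax9, had 37.6 kb of H3K27me3 (height 73) and no H3K4me3. Differences between these families were not tested.

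**Figure D4:**
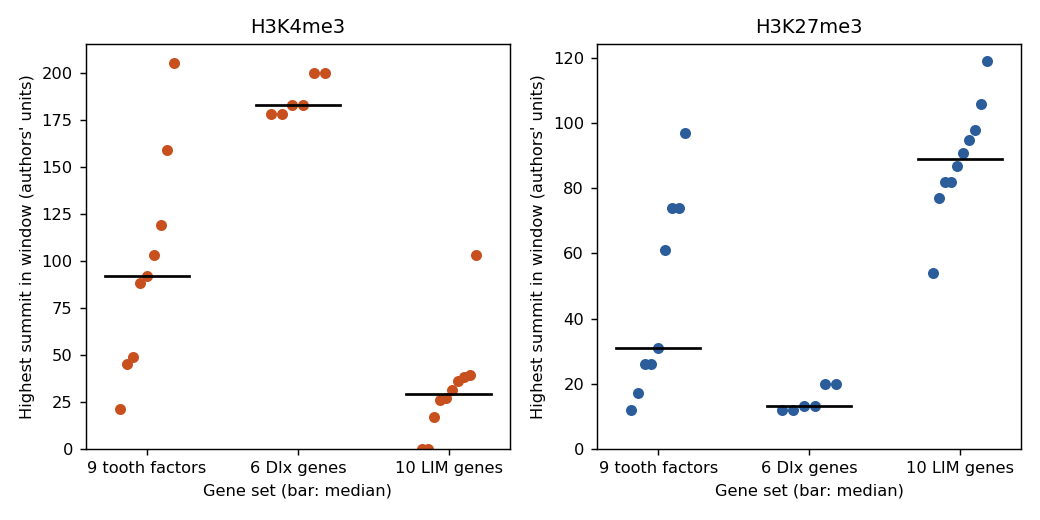
Highest summit in the window of each gene, in the authors' height units, for H3K4me3 (left) and H3K27me3 (right) in the 9 genes, 6 Dlx genes and 10 LIM homeobox genes of other lineages; points are genes, 0 means no island, and bars are medians. The medians are 92, 183 and 29 for H3K4me3 and 31, 13 and 89 for H3K27me3.

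In a list of 24 signalling and partner genes of tooth mesenchyme, 17 had both marks in the window, with shared sequence in all 17, and 7 had H3K4me3 only. Of all protein-coding genes, 71.0% had H3K4me3 in the window, 34.4% both marks and 25.9% shared sequence. The median lengths of the 24 were 8.70 kb for H3K4me3 and 5.10 kb for H3K27me3. Over all protein-coding genes, unmarked ones included, they were 3.90 and 0 kb. Bmp4, the BMP ligand kept on by Msx1 and Pax9, had H3K4me3 over 7.40 kb with a height of 95 and H3K27me3 over 11.4 kb with a height of 20, sharing 2.60 kb; within 1 kb of its ends the H3K27me3 height was 8. Bmp2 had heights of 194 and 10, Fgf3, a mesenchymal FGF of the tooth, 114 and 78 (29 for H3K27me3 within 1 kb of its ends), and Fgf10, an FGF of the incisor stem cell niche, 62 and 8. Inhba, which encodes an activin subunit, the syndecan gene Sdc1, the hedgehog effector gene Gli3 and the BMP and Wnt antagonist gene Sostdc1 had H3K4me3 only, with heights of 46, 203, 198 and 65. Inhba had neither mark within 1 kb of its ends, while the other three kept H3K4me3 there at the same heights. Of the 24 genes, 15 had both marks at their ends, 8 had H3K4me3 only and 1, Inhba, neither. Of all protein-coding genes, 58.9% had H3K4me3 there and 16.8% had both marks. H3K4me3 alone was thus no more frequent in the list than over all genes, at the ends or in the window.

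Genes most like the 9 were sought by percentile rank in 4 measures, the length and the highest summit of each mark, over the 2 libraries. The nearest to the median profile of the 9 were Kcnj9 (a distance of 2.77 percentile points), Ndufb8 (5.29) and Slc25a21 (5.32), while the 9 genes themselves lay from 3.94 (Lhx8) to 50.9 (Msx2) away. Kcnj9, which encodes a potassium channel, had heights of 89 and 34, and Ndufb8, a subunit of respiratory complex I, 100 and 28. These are the highest summits anywhere in each window, and which gene there the islands belong to was not examined. The window of Slc25a21, a mitochondrial carrier gene that overlaps the distal end of Pax9, takes in part of the main Pax9 H3K4me3 island (8.37 kb) and of the Pax9 H3K27me3 island (10.8 kb), and its heights of 103 and 31 are those of these islands. It also held 2 H3K4me3 and 4 H3K27me3 islands that lay outside the Pax9 window.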

How the data were processed

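H3K4me3 and H3K27me3 were profiled by chromatin immunoprecipitation and sequencing, 1 library each. The submitters' processing notes list BWA (a read aligner), SICER (a caller of broad islands) and the build mm10, with no versions, settings or depth. Each mark has an interval track and a summit track, per the file headers. The authors deposited with each summit a score, a whole number used here as the height; how it was scaled is not stated. All islands were 1 bp short of a multiple of 200 bp in width, so edges are resolved to about 200 bp. A joint track of active regions and the signal tracks were not used.

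Gene positions came from a RefSeq table of GRCm38.p6 (mm10), with no exons and no strand; strands and starts came from a RefSeq promoter table. All listed symbols were found. An island counted where it overlapped the gene plus 20 kb either side by at least 1 bp; lengths were clipped to that window, heights were those of whole islands. Percentiles are over all 21631 protein-coding genes, or all islands of a mark, with ties averaged. Positions are 1-based. No test was run. The interval code was checked on 200 simulated sets, with 0 disagreements. Python 3.11.15, pandas 2.3.3 and scipy 1.17.1 were used.

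The 9 genes and all lists were chosen with earlier results of these data known. One listed marker is not reported here. By rule the text names the 9 genes, protein-coding genes in their windows, the 3 genes nearest in profile, and up to 4 listed partner genes per state in list order. Msx3, Pax1, the Dlx and LIM sets, the markers named, the counts of wide or nested islands and the genes beside them fall outside that rule. Alternatives were windows of 0, 5 and 50 kb, 1 kb at the gene ends, the 50% of islands of each mark with the higher summits, islands merged within 1000 bp, larger minimum overlaps, and islands that touch no other protein-coding gene; 3 on wide islands and 1 on the order of heights were added after seeing the data.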

Additional observations from a re-analysis of the deposited data

How the results depend on the processing

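For 7 counts over the 9 genes, 51 alternative values were computed and 46 stayed within 1.5 times the reported count. With the 50% of islands of each mark with the higher summits (heights of at least 90 and 12), 5 genes kept H3K4me3, 5 both marks and 5 shared sequence: Msx1, Msx2, Pax9, Lhx8 and Osr2; all 9 kept H3K27me3. Of all protein-coding genes 50.1% had H3K4me3 at that setting, 16.1% both marks, 6.28% shared sequence and 29.8% H3K27me3, so the count of 5 with H3K4me3 is near the share over all genes. Lhx6, at 88, lay just under that limit. With windows of 50 kb either side, 3 genes (Msx1, Msx2 and Lhx6) lay above the 75th percentile by H3K4me3 length. With wide islands set at 12 kb or more, 1 lay wholly inside H3K27me3. In these cases fewer islands, or other flanking islands, enter by construction. No paired analysis was possible because each mark has 1 library, and for the same reason no library could be left out. Depth is unknown for both libraries, so weak islands may have gone uncalled, and with no input control copy number and mappability cannot be told apart from the marks.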

Other observations

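The windows of the 9 genes also held 15 noncoding genes of RefSeq, long noncoding or antisense, of which 8 overlapped an H3K4me3 island there and 11 an H3K27me3 island. Islands covered much of these windows, from 24.8% (Msx2) to 61.9% (Barx2) for H3K27me3 and from 2.42% (Barx2) to 38.3% (Msx2) for H3K4me3. No share over all noncoding genes is given here, so the counts describe position only. Msx1os, antisense to Msx1, lay wholly within the islands of Msx1, and Gm33763 spanned Msx2 and overlapped all 3 of its islands. AI606473, whose annotated lower-coordinate end lies at 154330821, near the Lhx8 start at 154330560, shared both Lhx8 islands. Islands do not separate the promoter of such a gene from that of its neighbour. The 3 protein-coding neighbours, Slc25a21 at Pax9 and Morn5 and Rbm18 at Lhx6, overlapped no island inside the windows, which cut these genes off. Beyond the Lhx6 window, H3K4me3 islands with heights of 138 and 133 overlapped Morn5 and Rbm18. Beyond the Pax9 window, Slc25a21 overlapped an H3K4me3 island with a height of 44 and H3K27me3 islands with heights of 8 to 22.

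Few islands lay just outside. Between 20 and 50 kb from the genes there were 4 H3K4me3 and 2 H3K27me3 islands. Nearest to the limit was an H3K4me3 island of 1.80 kb (height 30) at 21.9 kb from Osr2. An H3K27me3 island of 7.40 kb (height 8) followed at 25.5 kb from Barx1. The tallest were H3K4me3 islands with heights of 138 and 133, at 31.9 and 29.4 kb from Lhx6. An H3K4me3 island with a height of 131 lay 35.8 kb from Barx1. Msx1, Msx2, Pax9, Barx2 and Osr1 had no island of either mark in that range beyond those that reach into the window. Just inside the limit, the H3K27me3 island of Pax9 crossed it.

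The 10 other H3K4me3 islands of 10 kb or more that lay wholly inside H3K27me3 stood at Hand2 (25.2 kb), Foxf1 with Mthfsd (23.6 kb), Dlx1 and Dlx2 with Metap1d (22.6 kb), Prdm16 (15.4 kb), Foxd2 (14.0 kb), Sall3 (12.6 kb), Bcor (11.2 kb), Sp9 (10.8 kb), Skor1 (10.6 kb) and Alx4 (10.2 kb). Their H3K4me3 heights ran from 16 at Skor1 to 185 at Foxf1, with H3K27me3 heights of 114 and 19 there. Among the genes here that encode DNA-binding developmental regulators are Hand2, Foxf1, Dlx1, Dlx2, Foxd2, Sall3, Sp9 and Alx4. The share of such genes among all wide H3K4me3 islands was not counted. The genes at these 10 islands were named after their values had been seen.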
